A study of Mus musculus with 9 samples.

Results

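The genes described here encode 10 enzymes of glycolysis, chosen by symbol: the hexokinases Hk1 and Hk2, the isomerase Gpi1, the phosphofructokinases Pfkl, Pfkm and Pfkp, the aldolases Aldoa and Aldoc, the kinase Pgk1 and the lactate dehydrogenase Ldha. They are 10 of the 54532 genes in the deposited count table, and each of the 10 passed the filter on low counts, as 14004 genes did. ST2 cells, a wild-type mouse stromal line from bone marrow that can form osteoblasts, were kept for 72 h with vehicle, with rhWnt3a (recombinant human Wnt3a, 50 ng/ml), or with rhWnt3a and OSMI (20 μM), an inhibitor of the enzyme OGT that attaches O-GlcNAc to proteins. Each of the 3 groups had 3 libraries of messenger RNA, and no group received OSMI alone. The titles name rhWnt3a and OSMI for the last group, while its treatment label names OSMI. The cells come from a single line, so the values describe that line, and the study calls its replicates biological without saying what was kept separate. The p-values set a difference between groups against the spread between these libraries, and what that spread includes is not known.

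Glycolysis splits glucose into pyruvate, and lactate dehydrogenase turns pyruvate into lactate. Hexokinase traps glucose in the cell, Gpi1 converts the product to its fructose form, and phosphofructokinase commits it to the pathway. Aldolase cleaves the sugar and Pgk1 makes ATP further down. Several of these steps can be carried out by isozymes, proteins from different genes that catalyse the same reaction and differ in where they are made and how they are controlled. Osteoblasts use glucose heavily even with oxygen present, and Wnt signaling is known to raise this use, so the study asked whether O-GlcNAc is needed for it. In bulk RNA, fewer cells making a transcript and less of it per cell cannot be told apart.

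The libraries held 16135898 to 17583945 counts. As a check of the treatment, Axin2, a feedback target of canonical Wnt signaling, was at 4 to 14 counts in vehicle libraries, at 296 to 355 after rhWnt3a and at 185 to 297 when OSMI was added. All 8 stromal markers exceeded 3 counts in some library, with Col1a1 and Col1a2 among the abundant transcripts. The 8 together summed to 17734 to 24347 CPM (counts per 1000000 of the TMM-scaled library total) with vehicle, 14507 to 17624 with rhWnt3a and 8069 to 15632 with OSMI added. Most of this sum was collagen: the means were 10055, 6963 and 4060 CPM for Col1a1 and 9352, 8418 and 5649 for Col1a2 in the same order. Pdgfrb changed little (876, 847 and 798), Cxcl12 was lowest with rhWnt3a alone (1323, 266 and 358), and Ly6a fell (51.1, 17.7 and 5.33). Lepr and Thy1 did not exceed 4 counts. Of the markers of other cells, 2 of 6 for blood, 2 of 4 for endothelium, 1 of 4 for adipocytes and 1 of 4 for skeletal muscle exceeded 3 counts in some library. The sums for these other cells stayed between 0.35 and 1.98 CPM for blood, between 0.24 and 1.28 for endothelium and between 0 and 2.32 for muscle. The adipocyte markers, nearly all Pparg, lay at 21.7 to 26.9 CPM with vehicle, 6.82 to 7.67 with rhWnt3a and 10.8 to 12.03 with OSMI added. The part of these markers in the results was not tested. Across all genes, the library farthest from its companions was marked in each group, so 1 per group was marked by rule. These libraries, said here to stand off, were replicate 3 of vehicle, replicate 2 of rhWnt3a and replicate 3 of OSMI. Their mean squared log2 distances to their companions were 0.42, 0.39 and 0.44, and those of the other libraries 0.24 to 0.29. The first principal component of the deviations from group means carried 54.8% of their variance, and it placed vehicle replicate 3, rhWnt3a replicate 2 and OSMI replicates 1 and 2 on one side.

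In counts per gene length (FPKM, with the deposited gene lengths), Aldoa was the highest of the 10 in every group, at 376 ± 66.0 FPKM (mean ± SD, n = 3) with vehicle. These lengths were 8532 bases for Hk1 and 13401 for Pfkp, whose longest coding transcripts have 4278 and 4145. For Hk2 and Pfkm they were 5969 and 3340, against 5513 and 2879. Comparisons between genes and shares per length therefore depend on the length used. Pgk1 (193 ± 36.5) and Ldha (136 ± 26.8) followed, then Gpi1 (48.7 ± 3.09), Hk1 (28.3 ± 4.98), Pfkl (17.2 ± 2.31), Hk2 (13.3 ± 0.61), Pfkm (10.3 ± 1.54), Pfkp (2.72 ± 0.23) and Aldoc (0.33 ± 0.11). No neighbours in this order overlapped between vehicle libraries. With rhWnt3a, Pfkl (34.5 ± 2.22 FPKM) moved above Hk1 (22.9 ± 1.86), and the libraries of Hk1 and Hk2 (20.5 ± 2.86) overlapped. With OSMI added the libraries of Pgk1 (140 ± 31.1) and Ldha (99.3 ± 26.6) overlapped, as did those of Ldha and Gpi1 (63.7 ± 4.84), of Hk1 (25.1 ± 5.30) and Pfkl (20.1 ± 2.91), and of Pfkl and Hk2 (19.1 ± 3.20).

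Against vehicle, rhWnt3a raised Hk2, Gpi1, Pfkl and Pgk1, whereas Hk1, Pfkm, Pfkp, Aldoa and Ldha were not called. Aldoc passed the count filter only through its vehicle libraries, so a lower value elsewhere was built in, and it is described by its counts and left out of the numbers of called genes here. Calls needed a Benjamini-Hochberg adjusted p under 0.05 over all tested genes in a two-sided edgeR quasi-likelihood test, and a log2 difference of more than 0.5 in either direction. Thus 4 of the other 9 were called higher, where 2.92% of all tested genes were. The genes were chosen with earlier results of these data known. Setting them against all tested genes, here and below, is therefore a description and no test of the list. The Wald test of DESeq2 called 5 higher, adding Ldha. Lower calls were made for 5.86% of all tested genes and for 0 of the 9 by edgeR, by edgeR at an unadjusted p under 0.05 (0) or by DESeq2 (0). In CPM, the libraries with rhWnt3a lay above all of vehicle for 6 of the 9, of which Aldoa overlapped in FPKM. Groups that did not overlap in either direction were found for 26.4% of all tested genes. The median log2 fold change of the 9 genes other than Aldoc was 0.63, and that of all tested genes was 0.04. Adding OSMI to rhWnt3a lowered Gpi1, Pfkl, Pgk1 and Ldha. DESeq2 called 5 lower, adding Aldoa. None of the 10 was called higher by edgeR, also at an unadjusted p under 0.05 (0 genes), or by DESeq2 (0). Among all tested genes 3.05% were called lower and 1.69% higher. The libraries did not overlap for 6 of the 9, 1 higher and 5 lower, a state that 33.7% of all tested genes met. The median of the 9 genes was −0.60 (−0.01 over all tested genes). Between rhWnt3a with OSMI and vehicle, Hk2 was called higher (4.84% of all tested genes), and 0 of the 9 were called lower by edgeR or DESeq2 (9.34% of all tested genes by edgeR). At an unadjusted p under 0.05 in edgeR, 1, Pfkm, was lower and 2, Hk2 and Gpi1, were higher. DESeq2 gave Gpi1 an adjusted p of 0.0157, but its log2 difference of 0.39 was under the threshold. Of the 9, 2 did not overlap, Hk2 and Gpi1, both higher (38.8% of all tested genes in either direction). The median of the 9 genes was −0.17 there, against −0.01. These comparisons share libraries, so they do not count as independent of each other. The shares of all tested genes called are those of edgeR at the adjusted threshold. None is given for DESeq2 or for unadjusted p.

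**Figure D1:**
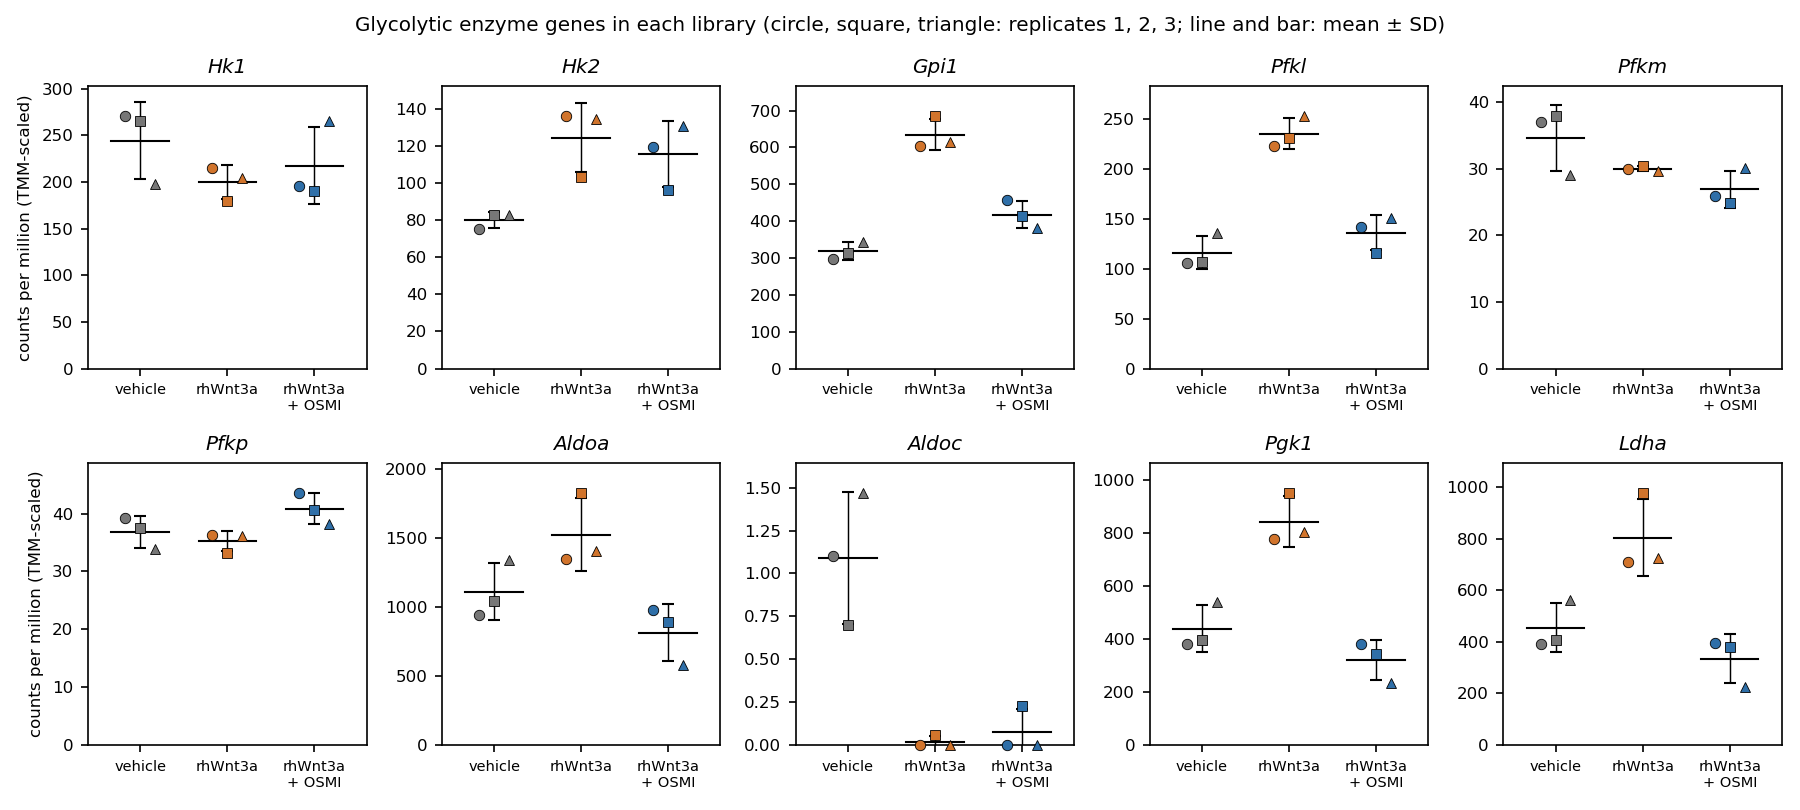
CPM (TMM-scaled, linear axis from 0, a scale of its own for each gene) of the 10 genes in the 9 libraries, by group. Points are libraries, the line is the mean and the bar the SD over 3 libraries. Gpi1 lies at 605 to 685 CPM with rhWnt3a and at 298 to 344 with vehicle, while Hk1, Pfkm and Pfkp overlap between these groups.

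Hexokinase was represented by Hk1, the form found in most tissues, and Hk2, the inducible form of muscle and fat. Hk1 (ENSMUSG00000037012, chromosome 10, 62268855 to 62379908 in GRCm38) measured 270, 265 and 197 CPM with vehicle, 215, 180 and 205 with rhWnt3a, then 196, 191 and 265 with OSMI added. The groups overlapped in each comparison, and the log2 fold change with rhWnt3a was −0.29 (SE 0.18, edgeR adjusted p = 0.447). Hk2 (ENSMUSG00000000628, chromosome 6, 82725025 to 82774454) measured 75.4, 83.0 and 82.7 CPM with vehicle, 136, 103 and 135 with rhWnt3a, and 120, 96.7 and 131 with OSMI added. Every library with rhWnt3a, with or without OSMI, lay above every vehicle library. Hk2 rose with rhWnt3a by 0.63 on the log2 scale (SE 0.16, adjusted p = 0.0313). With OSMI added it stood 0.53 above vehicle (SE 0.16, adjusted p = 0.0469), and its difference from rhWnt3a alone was −0.11 (SE 0.16, adjusted p = 0.699). Both calls were near the threshold. The call for rhWnt3a was lost without vehicle replicate 1, 2 or 3, rhWnt3a replicate 1 or 3 or OSMI replicate 1 (adjusted p = 0.0531 to 0.142), and the call with OSMI added was lost without vehicle replicate 1, 2 or 3, rhWnt3a replicate 3 or OSMI replicate 1 or 3 (0.0729 to 0.137).

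A share of a step needs no scaling of the libraries, because both isozymes are counted in the same one. Hk2 made up 21.8%, 23.8% and 29.5% of all hexokinase counts with vehicle, 38.8%, 36.5% and 39.7% with rhWnt3a, then 37.9%, 33.6% and 33.1% with OSMI added. Vehicle replicate 3 was the highest of its group and still below the other groups. The means were 25.0 ± 4.02%, 38.3 ± 1.65% and 34.9 ± 2.62%, and they differed between the 3 groups (exact permutation test of F over 280 partitions of the libraries, p = 0.00714, adjusted over the 6 shares compared p = 0.0143). The mean share with rhWnt3a was 13.3 points above vehicle (exact two-sided permutation p = 0.1), and the change on adding OSMI was −3.42 points (exact permutation p = 0.2). With 3 libraries against 3 such a pairwise test, of which 18 were made, cannot go below 0.1, so none could pass before or after adjustment. The total of the step hardly moved, at 325 ± 39.0, 325 ± 36.1 and 333 ± 56.3 CPM in the same order. Per deposited gene length, Hk2 held 32.3 ± 4.66%, 47.0 ± 1.74% and 43.4 ± 2.82% of the step, still below Hk1 on average. These values depend on the length used for Hk1, 8532 bases, where its longest coding transcript has 4278. Hk3 and Hkdc1, further hexokinase genes, had at most 6 counts in any library.

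Gpi1 (ENSMUSG00000036427, chromosome 7, 34201330 to 34230336), the isomerase that links hexokinase to phosphofructokinase, was measured at 298, 313 and 344 CPM with vehicle. It measured 605, 685 and 616 with rhWnt3a and 457, 415 and 382 with OSMI added. The 3 groups were fully separate, with OSMI in between. The rise was 0.996 on the log2 scale (SE 0.14, edgeR adjusted p = 0.00139) and held without any single library. The decrease with OSMI was −0.60 (SE 0.14, adjusted p = 0.0359). When each library was dropped in turn, the call remained in 1 of 9 cases, without vehicle replicate 3, and the adjusted p was 0.0561 to 0.127 in the rest. Against vehicle, Gpi1 with OSMI differed by 0.39 (SE 0.14, adjusted p = 0.0820).

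The 3 phosphofructokinase genes behaved unequally. Pfkl, the liver-type subunit, was measured at 106, 107 and 135 CPM with vehicle, at 222, 231 and 253 with rhWnt3a alone and at 142, 116 and 150 when OSMI was added (ENSMUSG00000020277, chromosome 10, 77986947 to 78010083). All rhWnt3a libraries stood above all others, and those of vehicle and OSMI overlapped. It rose by 1.02 (SE 0.15, edgeR adjusted p = 0.00225), a call that held without any single library. With OSMI it fell by 0.79 on the log2 scale (SE 0.15, adjusted p = 0.0192), a call lost without any of the 3 rhWnt3a libraries or without OSMI replicate 1 or 2 (adjusted p = 0.055 to 0.0971). Pfkm, the muscle-type subunit (ENSMUSG00000033065, chromosome 15, 98092589 to 98132451), had 37.1, 37.9 and 29.0 CPM with vehicle, 30.1, 30.4 and 29.7 with rhWnt3a and 25.9, 24.8 and 30.1 with OSMI. Pfkp, the platelet-type subunit (ENSMUSG00000021196, chromosome 13, 6579768 to 6648777), had 39.3, 37.5 and 33.8 CPM with vehicle, 36.4, 33.2 and 36.1 with rhWnt3a and 43.6, 40.6 and 38.2 with OSMI. Neither was called. The log2 differences with rhWnt3a were −0.21 (SE 0.14) for Pfkm and −0.07 (SE 0.12) for Pfkp. Pfkp lay above rhWnt3a alone in all 3 libraries with OSMI, by 0.21 (SE 0.12, adjusted p = 0.321).

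The make-up of the step shifted. Pfkl held 58.1%, 58.6% and 68.3% of the phosphofructokinase counts with vehicle, 77.0%, 78.4% and 79.3% with rhWnt3a, and 67.1%, 64.0% and 68.7% with OSMI added. The share with rhWnt3a exceeded that of every other library, and those of vehicle and OSMI overlapped (means 61.7 ± 5.75%, 78.2 ± 1.18% and 66.6 ± 2.42%, exact permutation p = 0.0107, adjusted over the 6 shares p = 0.0161). The share was 16.6 points higher with rhWnt3a than with vehicle and 11.6 points lower after OSMI, each at the smallest pairwise exact permutation p of 0.1. Pfkm went from 18.6 ± 3.44% through 10.02 ± 0.61% to 13.2 ± 0.86% (exact permutation p = 0.00357, the smallest 280 partitions can give, adjusted p = 0.0107). Pfkp went from 19.7 ± 2.36% through 11.7 ± 0.75% to 20.2 ± 2.47% (exact permutation p = 0.025, adjusted p = 0.03). The shares of a step add up to 100%, so these are not independent results. For each Pfkm count there were 2.82 to 4.67 Pfkl counts with vehicle, 7.40 to 8.51 with rhWnt3a and 4.67 to 5.48 with OSMI. Counts favor long genes, and the table gives Pfkp a length of 13401 bases and Pfkm 3340. Per deposited gene length the order was Pfkl, Pfkm, Pfkp in each library. Pfkm then held 34.1 ± 5.67% of the step with vehicle, against 9.03 ± 0.92% for Pfkp. The longest coding transcripts of Pfkp and Pfkm have 4145 and 2879 bases, so these values depend on the length used.

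**Figure D2:**
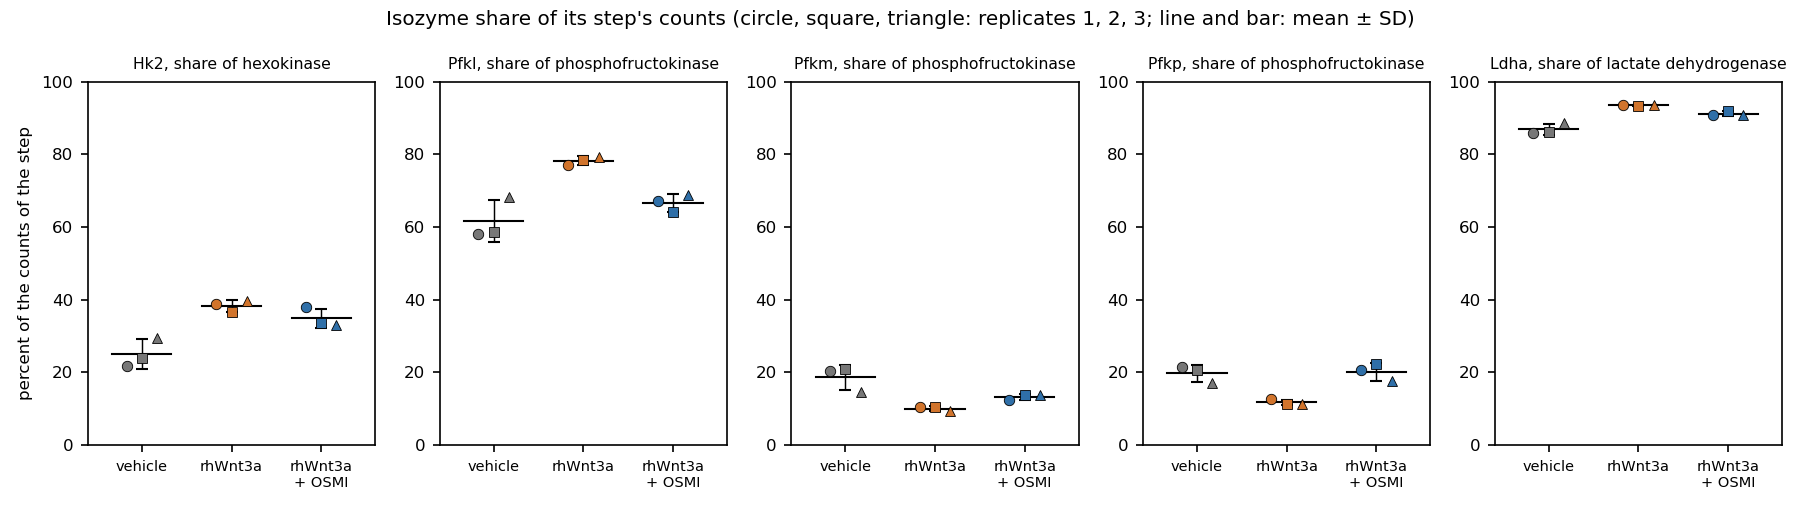
Share of an isozyme in the counts of its step (percent, axis from 0 to 100) in the 9 libraries, by group. Points are libraries, the line is the mean and the bar the SD over 3 libraries. Pfkl reaches 77.0% to 79.3% with rhWnt3a and Hk2 36.5% to 39.7%, and Hk2 remains at 33.1% to 37.9% with OSMI.

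Among the aldolases, Aldoa, the form of muscle and most other tissues, carried 99.4% to 99.8% of the counts of its step in each library. Aldoa (ENSMUSG00000030695, chromosome 7, 126795234 to 126800751) measured 942, 1046 and 1341 CPM with vehicle, 1343, 1826 and 1401 with rhWnt3a, and 974, 889 and 578 with OSMI added. The rhWnt3a libraries lay above the rest in CPM, although rhWnt3a replicate 1 exceeded vehicle replicate 3 by little (1343.1 against 1341.0). In FPKM these 2 libraries were in the other order (449.648 against 449.654), so the separation depends on the scaling. Neither the difference of 0.46 with rhWnt3a (SE 0.23, edgeR adjusted p = 0.323) nor that of −0.90 with OSMI (SE 0.23, adjusted p = 0.0569) was called. The latter lay just outside the threshold, and was called without vehicle replicate 3 (adjusted p = 0.0497), with median-of-ratios scaling (0.0499), without a count filter (0.00346) and by DESeq2 (0.00298), but not on the 6 libraries alone (0.103) or with any other single library left out (0.0781 to 0.166). Aldoc, the brain form (ENSMUSG00000017390, chromosome 11, 78322968 to 78327781), had 18, 11 and 26 counts with vehicle, 0, 1 and 0 with rhWnt3a and 0, 4 and 0 with OSMI. The groups with rhWnt3a lay below all vehicle libraries, and no test is given because the gene was kept for its vehicle counts. Pooled over the libraries of a group, Aldoc had 55 counts with vehicle, 1 with rhWnt3a and 4 with rhWnt3a and OSMI. At its highest Aldoc made up 0.12% of the aldolase counts of a library.

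Pgk1 and Ldha had the largest decreases with OSMI of the 10 genes. Pgk1 (ENSMUSG00000062070, chromosome X, 106187100 to 106203699) measured 382, 394 and 539 CPM with vehicle, 775, 950 and 801 with rhWnt3a alone, then 382, 343 and 235 after OSMI was added. All rhWnt3a libraries stood above all others, and OSMI replicate 1 lay level with vehicle replicate 1. It rose by 0.94 (SE 0.21, edgeR adjusted p = 0.0215). That call was lost without vehicle replicate 1 or 2 or rhWnt3a replicate 2 or 3 (adjusted p = 0.0528 to 0.0986). With OSMI it fell by 1.40 on the log2 scale (SE 0.22, adjusted p = 0.00826), and this held without any single library. Pgk2, the testis form, had no counts. Ldha (ENSMUSG00000063229, chromosome 7, 46841475 to 46855627), the subunit that favors the making of lactate, measured 393, 409 and 565 CPM, then 709, 979 and 727, then 398, 382 and 226 in the same order of groups. Its libraries were ordered as those of Pgk1, with rhWnt3a above the rest. Ldha differed by 0.82 with rhWnt3a (SE 0.25, adjusted p = 0.0732), and this was called without vehicle replicate 3 (adjusted p = 0.0456) or OSMI replicate 3 (0.0189), on the 6 libraries alone (0.0401), without a count filter (0.00719) and by DESeq2 (0.0167), but not with any other single library left out (0.0829 to 0.235). Ldha fell by 1.26 on the log2 scale with OSMI (SE 0.25, adjusted p = 0.0219), a call lost without any of the 3 rhWnt3a libraries or OSMI replicate 1 or 2 (0.0511 to 0.0667).

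The partner of Ldha in the enzyme is Ldhb, the heart-type subunit, with 65.1, 66.1 and 72.2 CPM with vehicle, 49.0, 71.2 and 50.0 with rhWnt3a and 40.9, 33.2 and 23.0 with OSMI. Its OSMI libraries were below all vehicle libraries, a log2 difference of −1.07 (SE 0.22, edgeR adjusted p = 0.00975). Ldha made up 85.8%, 86.1% and 88.7% of lactate dehydrogenase counts with vehicle. With rhWnt3a it made up 93.5%, 93.2% and 93.6%, and with OSMI 90.7%, 92.0% and 90.8%. The groups were fully separate (means 86.8 ± 1.58%, 93.4 ± 0.19% and 91.2 ± 0.74%, exact permutation p = 0.00357, adjusted over the 6 shares p = 0.0107). There were 6.03 to 7.82 Ldha counts per Ldhb count with vehicle, 13.7 to 14.5 with rhWnt3a and 9.73 to 11.5 with OSMI. The level of Ldha with OSMI overlapped that of vehicle, while its share stayed 4.31 points higher (pairwise exact permutation p = 0.1). Ldhc, the testis form, had at most 2 counts.

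**Figure D3:**
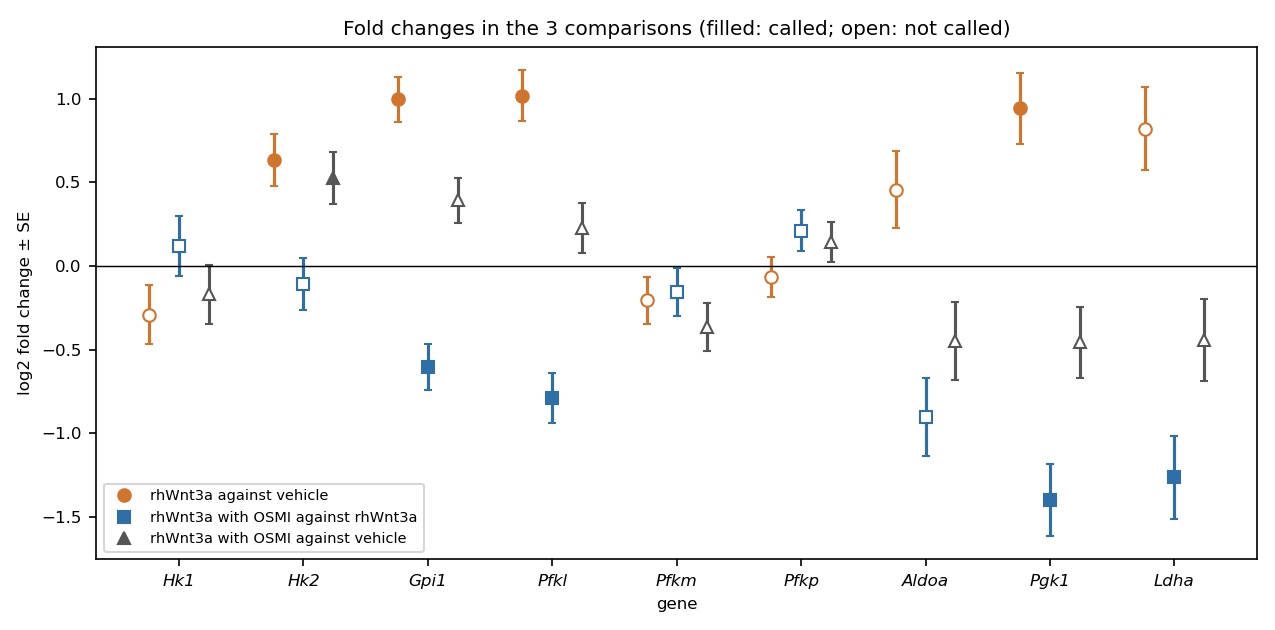
Log2 fold change (edgeR, bars are 1 SE, 9 libraries in the fit) of 9 genes in the 3 comparisons, with called values filled. Aldoc is left out because it was near 0 counts in 2 of the groups. Gpi1, Pfkl and Pgk1 are filled for rhWnt3a against vehicle (0.996, 1.02 and 0.94) and for OSMI added to rhWnt3a (−0.60, −0.79 and −1.40), and Hk2 is filled for both groups with rhWnt3a against vehicle (0.63 and 0.53).

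Because Gpi1, Pfkl, Pgk1 and Ldha were the genes called lower with OSMI, their promoters are shown, as the RefSeq windows of 250 bases before to 50 bases after the start site (GRCm38.p6). Capitals mark ACGTG or GCGTG on either strand, the core letters of the element bound by hypoxia-inducible factor, a known activator of glycolytic genes. Overlapping matches were counted once, and the palindromic E-box CACGTG also holds these letters.
Gpi1 (chr7:34230287-34230586, minus strand): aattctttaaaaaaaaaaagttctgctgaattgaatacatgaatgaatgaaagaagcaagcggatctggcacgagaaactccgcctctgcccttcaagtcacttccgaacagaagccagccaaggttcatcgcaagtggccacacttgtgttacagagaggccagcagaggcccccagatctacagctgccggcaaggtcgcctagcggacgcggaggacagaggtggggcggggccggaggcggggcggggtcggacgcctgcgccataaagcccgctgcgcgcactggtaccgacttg
Pfkl (chr10:78009758-78010057, minus strand): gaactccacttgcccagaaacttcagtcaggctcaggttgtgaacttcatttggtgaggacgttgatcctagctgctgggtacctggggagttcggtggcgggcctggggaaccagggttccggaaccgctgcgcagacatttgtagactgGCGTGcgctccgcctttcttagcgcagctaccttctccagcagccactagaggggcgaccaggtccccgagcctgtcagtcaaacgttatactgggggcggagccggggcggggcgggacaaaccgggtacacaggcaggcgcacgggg
Pgk1 (chrX:106186850-106187149, plus strand): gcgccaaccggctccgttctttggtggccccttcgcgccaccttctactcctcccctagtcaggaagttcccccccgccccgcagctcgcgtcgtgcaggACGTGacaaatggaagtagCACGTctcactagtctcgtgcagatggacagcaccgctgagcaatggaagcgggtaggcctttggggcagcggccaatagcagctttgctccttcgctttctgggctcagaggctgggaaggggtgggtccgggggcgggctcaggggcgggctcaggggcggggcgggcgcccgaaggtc
Ldha (chr7:46845554-46845853, plus strand, the first of 2 windows): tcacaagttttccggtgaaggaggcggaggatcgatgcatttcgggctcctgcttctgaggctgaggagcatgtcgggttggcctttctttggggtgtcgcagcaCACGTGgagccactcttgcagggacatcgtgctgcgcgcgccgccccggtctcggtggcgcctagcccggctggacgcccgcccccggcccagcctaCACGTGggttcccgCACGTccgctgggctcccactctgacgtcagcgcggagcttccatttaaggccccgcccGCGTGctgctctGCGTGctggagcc
The Pgk1 window held 2 matches, starting 150 and 131 bases before the start site. The Ldha window held 5, of which those starting 145 and 48 bases before the start site are E-boxes, the Pfkl window 1, and the Gpi1 window none. The second Ldha window held 2. Of the genes not called lower, the windows of Hk1 held 0 and 4, that of Hk2 2 and those of Pfkm 2, 2, 1 and 0. That of Pfkp held 4, those of Aldoa 0, 1 and 1, and those of Aldoc 3 and 1. Whether matches go with the calls was not tested. Over the 18 windows listed for the 10 genes, 14 held at least 1 match, from 9 genes, and 43.8% of the 32851 windows of all genes did. Some of the 18 overlap, as 2 windows of Aldoa and 2 of Pfkm do, and these count the same site again. G and C made up 57.3% to 67.3% of the windows shown, where the median over all windows was 52.7%. Enrichment was not tested. At least 2 matches occurred in 17.3% of all windows. The letters CTTTG followed by a pair of bases that are each A or T, which Wnt-responsive TCF and LEF proteins bind, were in none of the 18 windows on either strand and in 16.9% of all windows. A match describes the letters of the window and not binding in these cells.

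Of the other 20 core enzymes listed, 12 were tested, and 0 were called with rhWnt3a (edgeR), although 7 lay above vehicle in all libraries (26.4% of all tested genes did not overlap in either direction). At an unadjusted p under 0.05, 4 of the 12 were higher (Pgam1, Bpgm, Eno1 and Pkm), and the Wald test of DESeq2 called 3 higher (Pgam1, Bpgm and Eno1). With OSMI, 2 were called lower by edgeR, where 3.05% of all tested genes were, and 8 lay below rhWnt3a in all libraries, where 33.7% did not overlap in either direction. At an unadjusted p under 0.05, 8 were lower, and DESeq2 called 6 lower (Tpi1, Pgam1, Eno1, Eno1b, Eno3 and Ldhb). For unadjusted p and for DESeq2 no share of all tested genes is given beside these numbers. Tpi1, the triose isomerase, was measured at 378, 522 and 410 CPM with rhWnt3a and at 242, 229 and 118 with OSMI, with no overlap and a log2 difference of −1.16 (SE 0.27, edgeR adjusted p = 0.0408). Eno1b, an enolase gene, differed by −0.87 (SE 0.21, adjusted p = 0.0434), and 92.2% of its transcript is near-identical to other genes, chiefly Eno1. Against vehicle, Eno3 (the muscle enolase) and Ldhb were called lower with OSMI by edgeR, where 9.34% of all tested genes were. Eno3 differed by −0.98 (SE 0.21, adjusted p = 0.0116). DESeq2 called the same 2 lower and 2 higher, Gapdh (1.64, DESeq2 adjusted p = 0.00891) and Pgam2 (1.14, 0.0269). The medians of the 12 were 0.50, −0.53 and −0.18 in the 3 comparisons, against 0.04, −0.01 and −0.01 over all tested genes. Of the genes that hold at least 1% of their step, Eno1 (enolase) was measured at 924 to 1276 CPM with vehicle, 1479 to 1847 with rhWnt3a and 676 to 1042 with OSMI, Pgam1 (mutase) at 396 to 483, 620 to 718 and 356 to 499, and Pkm (pyruvate kinase) at 696 to 746, 863 to 1039 and 625 to 704. None of these was called by edgeR. Eno2 (24.5 to 40.4 CPM over the 9 libraries), Bpgm (6.88 to 15.1), Pgam2 (1.21 to 5.19) and Gapdhs (0.11 to 2.91) also passed 1% of a step. Gapdh was counted at 6.22 to 45.2 CPM. It had 107, 125 and 110 counts with vehicle and 164, 788 and 173 with OSMI added, so its difference leaned on OSMI replicate 2. In addition, 49 other genes share 88.0% of its transcript, and among them the pseudogene Gm13394 had 1996 to 8864 counts. The level and the fold change of Gapdh here are therefore uncertain.

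Some members also varied within groups, in the libraries that stood off. Vehicle replicate 3 exceeded its group mean by 0.33 for Ldha, 0.32 for Pgk1 and 0.29 for Aldoa (log2 CPM), rhWnt3a replicate 2 by 0.30, 0.18 and 0.27, and OSMI replicate 3 lay at −0.52, −0.41 and −0.46. Hk1 deviated the other way, by −0.29, −0.15 and 0.30. Pfkl deviated by 0.23, −0.03 and 0.15. Without these 3 libraries 6, 4 and 3 members, Aldoc included, were called in the 3 comparisons. The share of all tested genes called in that fit is not given, so these numbers cannot be set against it. Ldha was then also called with rhWnt3a (0.81), and on adding OSMI Aldoa was called (−0.56) while Gpi1 was not (−0.49). Against vehicle, OSMI then gave calls for Hk1 (−0.51) and Pfkm (−0.60) and none for Hk2 (0.41). The remaining pairs are the closest in each group by construction, so the spread is understated there. Values were also computed within each side of the component. With rhWnt3a the log2 differences from vehicle on the sides were 0.991 and 0.999 for Gpi1, 0.77 and 1.15 for Pfkl, 0.82 and 1.02 for Pgk1, 0.79 and 0.84 for Ldha, and 0.32 and 0.77 for Hk2. With OSMI added the differences from rhWnt3a were −0.65 and −0.68 for Gpi1, −0.85 and −0.66 for Pfkl, −1.39 and −1.74 for Pgk1, and −1.33 and −1.67 for Ldha. Each side held 1 or 2 libraries of a group, so no test was made. The rhWnt3a difference in share on the sides was 6.95 and 16.4 points for Hk2, 10.1 and 19.8 for Pfkl, and 4.56 and 7.60 for Ldha. With OSMI against vehicle, the Pfkl share was −2.78 points on one side and 10.4 on the other, and that of Pfkp 4.44 and −3.58.

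**Figure D4:**
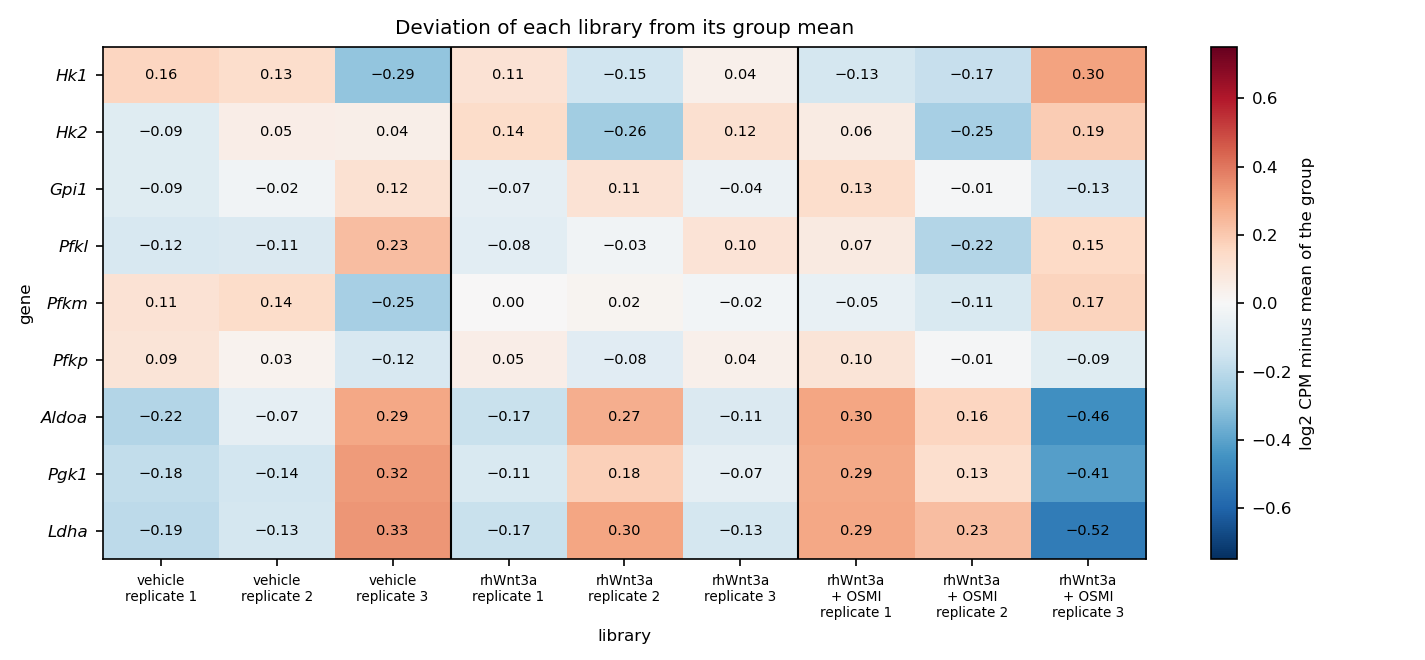
Log2 CPM of each library minus the mean of its group (color scale centred on 0, numbers in the cells) for 9 genes and 9 libraries. Aldoa, Pgk1 and Ldha move together within groups, high in vehicle replicate 3 (0.29, 0.32 and 0.33) and low in OSMI replicate 3 (−0.46, −0.41 and −0.52), while Hk1 runs opposite (−0.29 and 0.30).

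The tested gene whose profile over the 9 libraries was most like that of each member was sought by the root mean square difference of log2 CPM after centring, among 11435 genes. Pgk1 and Ldha were nearest to each other (0.09), against an SD of 0.67 and 0.64 over the libraries. Nearest to Aldoa was Gm4735 (0.06, SD 0.48), a pseudogene near-identical to 64.2% of the Eno1 transcript, which had 103 to 330 counts. Hk2 was nearest to Pde8a (0.07, SD 0.33), Gpi1 to Bdnf (0.13, SD 0.45), Pfkl to Itih2 (0.12, SD 0.49), Hk1 to Npr2 (0.07, SD 0.23), Pfkm to Casp9 (0.08, SD 0.20) and Pfkp to Scyl2 (0.06, SD 0.12). Aldoc had no close match, with Tmeff2 nearest at 0.51 against an SD of 1.57. These are descriptions, since the nearest of many genes is always near.

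Some members share sequence or position with other genes, to which their reads could have been assigned or the reverse. Strandedness is not stated, so reads of overlapping genes on opposite strands cannot be told apart. Pseudogenes and other genes at least 97% identical over 100 bases cover 68.8% of the Pgk1 transcript, where Pgk1-rs7 had 9 to 53 counts and Gm5537 none, while AC131796.1 is not a gene of the table. They cover 45.5% of Gpi1, where the pseudogene Gm1840 had 5 to 24 counts and the overlapping Gm26762 had 7 to 39. Pfkp overlaps Pitrm1 on the opposite strand over 18.05% of its transcript (1501 to 1828 Pitrm1 counts), Hk1 overlaps the antisense gene Hk1os over 3.67% (7 to 30 counts), and Pfkm overlaps Senp1 on the opposite strand (482 to 748 counts). Gm17034 and Fam57b lie across Hk2 and Aldoa and had at most 4 counts. Hk2, Pfkl, Pfkm, Aldoa, Aldoc and Ldha had no near-identical gene by this measure. A second gene named Aldoa (ENSMUSG00000114515, chromosome 7, 126800790 to 126809108), named after its values were seen, lies just upstream and had 15, 24 and 30 counts with vehicle, 83, 92 and 91 with rhWnt3a and 84, 44 and 60 with OSMI. It was called higher in both groups against vehicle (1.92, SE 0.31, edgeR adjusted p = 0.00386, and 1.41, SE 0.32, adjusted p = 0.0149).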

How the data were processed

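Messenger RNA of 9 libraries was measured by poly-A sequencing at Novogene. The submitters' processing notes name CASAVA, fastp, HISAT2 2.0.5, featureCounts 1.5.0-p3 and mm10. Strandedness and annotation release are not given in the sources used here. The authors deposited raw read counts per gene and FPKM values (counts per gene length and library total). The fold changes and p-values of the authors' own comparisons are in the same table and were not used. The 10 members and the gene lists were chosen with earlier results of these data known.

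Counts were fitted in R 4.3.3 with edgeR 4.0.16 (filterByExpr at a minimum count of 10 and total of 15, TMM, glmQLFit, glmQLFTest) on all 9 libraries without covariates, and the adjusted p was taken over 14004 genes. The test was checked on simulated data. CPM used TMM-scaled totals (factors 0.947 to 1.03), and 3 counts, the floor, are 0.17 to 0.191 CPM. Totals of 16135898 to 17583945 gave a common dispersion of 0.0452. Shares used summed counts of every gene of a step. Their exact tests used 280 partitions. Members, called or most abundant core enzymes (at least 1% of a step), nearest profiles and near-identical genes (BLAST 2.17.0, GENCODE M21 transcripts) were named. The coordinates of 10 of 10 members equalled those of GENCODE M21. Alternatives were median-of-ratios scaling, the Wald test of DESeq2 1.42.0, other filters, thresholds and libraries, and a replicate block.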

Additional observations from a re-analysis of the deposited data

How the results depend on the processing

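The numbers of called members were small and moved with the processing. Shares of all tested genes called under each alternative are not given. A change in the members therefore cannot be told from a change in all genes. The numbers here include Aldoc, which passed the filter only through vehicle. From 5 with rhWnt3a against vehicle, 4 with OSMI added to rhWnt3a and 2 with OSMI and rhWnt3a against vehicle, a log2 threshold of 1 left 2, 2 and 1. With the replicate number of the titles as a block, 3, 2 and 0 members were called. How libraries with equal numbers departed from their groups correlated at −0.49 to 0.44, so the numbers were not taken as pairs, and a call lost under the block is not a smaller effect. OSMI against rhWnt3a gave 2 on its 6 libraries alone. Against vehicle, OSMI gave 0 with at least 10 counts in every library, 1 without a count filter and 1 with median-of-ratios scaling. Leaving out a library gave 2 to 6, 1 to 5 and 0 to 2 members. Of the log2 fold changes of members under all alternatives, 459 kept direction and call, 58 lost the call, 15 gained it and 4 turned: with OSMI against rhWnt3a, Hk1 went from 0.12 to −0.046 without OSMI replicate 3 (−0.046 to 0.24 over the left-out libraries) and to −0.12 without the library of each group that stood off, and without OSMI replicate 2 Hk2 went to 0.042 (−0.20 to 0.042) and Aldoc to −1.86 (−1.86 to 3.53). The causes were not tested.

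The 6 shares, that of Aldoc included, had adjusted p-values under 0.05 over the groups, also per length and without any single library. For Aldoc this is not read as a result, because the gene was kept for its vehicle counts and a lower share elsewhere was built in. The adjusted p-values of the other shares were computed with Aldoc among the 6. The shares of Pfkl, Pfkm and Pfkp depend on each other, so the 6 are not separate results. With labels permuted only within the replicate block (216 arrangements) 4 of the 6 had adjusted p-values under 0.05. Without the libraries that stood off 0 did, where 15 partitions allow no p below 0.0667. The Pfkp share with OSMI minus vehicle turned from 0.43 points to −0.91 without vehicle replicate 3 and to −0.67 without OSMI replicate 2 (−0.91 to 1.76), and without the latter the Aldoc share with OSMI minus rhWnt3a turned to −0.00104 points (−0.00104 to 0.0118). With members alone as denominator, Ldha could not be tested. At this depth Aldoc cannot be compared between the groups with rhWnt3a.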
